A study of Mus musculus with 6 samples.

Results

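The 10 genes described here code for ligands and receptors of the tumour necrosis factor (TNF) superfamily. Their rows were taken by gene symbol, namely Tnf, Tnfsf8, Tnfsf9, Tnfsf10, Tnfsf12 and Tnfsf13b (ligands) and Tnfrsf1a, Tnfrsf1b, Cd40 and Fas (receptors) among 23491 gene symbols of a read count table. The list of symbols was drawn up with earlier results of these data known, so the counts of called members below describe the list and are not independent of the data. All 10 symbols had a row, and all 10 passed the filter on low counts. The libraries are RNA-seq of microglia, the resident macrophages of the brain, purified with CD11b beads from cerebella of mice with an Fmr1 knockout, a model of fragile X syndrome. There were 3 libraries from mice injected intraperitoneally with poly(I:C), a double-stranded RNA analogue used to imitate a virus, and 3 from saline mice, which the titles call sham. Both groups carry the Fmr1 knockout, so no wild-type level is available. The dose of poly(I:C), the time from injection to dissection, and the age and sex of the mice were not stated in the labels. Nothing says that replicates were separate animals, so a p-value here reflects only how far these samples spread, part of which may be technical.

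TNF superfamily ligands are mostly trimeric membrane proteins, some of which are cut from the cell surface and act at a distance. Their receptors fall into those with an intracellular death domain, such as Tnfrsf1a and Fas, which can start apoptosis or NF-kB signalling, and those that recruit TRAF adaptor proteins, such as Tnfrsf1b and Cd40. Microglia are a main source of TNF in the inflamed brain, and Tnfsf10, which codes for the death ligand TRAIL, is known as an interferon-induced gene.

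The 6 libraries held between 33710545 and 34899835 counts, so 1 count was worth 0.0284 to 0.0304 CPM, the read count after scaling to a common library size with TMM. The microglial marker list, which includes Tmem119 and P2ry12, summed to between 21255 and 28503 CPM in poly(I:C) libraries and between 25476 and 29269 CPM in saline libraries. CD11b is also carried by neutrophils and monocytes. The neutrophil list of 11 genes summed to between 501 and 2372 CPM in poly(I:C). In saline it summed to between 2471 and 20899 CPM, with the highest sum in saline replicate 1. The monocyte list summed to between 288 and 695 CPM in poly(I:C) and between 459 and 2713 CPM in saline, also highest in saline replicate 1. The choroid plexus list of 10 genes summed to between 7677 and 19461 CPM in poly(I:C), highest in poly(I:C) replicate 1. In saline it summed to between 3993 and 8542 CPM. The endothelial and pericyte list summed to between 222 and 516 CPM in poly(I:C), again highest in replicate 1, and between 149 and 300 CPM in saline. No marker of these lists was at 0 in any library, and none was called. In bulk samples, fewer cells of a type and less RNA per cell cannot be told apart.

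Interferon-induced genes are often read through short motifs near their start, so the proximal promoters of Tnfsf10 and Tnfsf8, the members with the largest differences, are shown beside those of Tnfsf13b and Tnfrsf1b, which hold the longer motif. Of the 10 members, 7 had an entry among the RefSeq promoter windows of build GRCm38.p6, which run from 250 bases before to 50 bases after a transcript start. Tnfsf9, Tnfsf12 and Cd40 had no window, so their promoters were not searched. Capitals mark matches, on either strand, to AANNGAAA, a site of interferon regulatory factors, and to GAAANNGAA, a shortened form of the interferon-stimulated response element that can overlap it.
Tnfsf10, chr3:27316827-27317126, plus strand: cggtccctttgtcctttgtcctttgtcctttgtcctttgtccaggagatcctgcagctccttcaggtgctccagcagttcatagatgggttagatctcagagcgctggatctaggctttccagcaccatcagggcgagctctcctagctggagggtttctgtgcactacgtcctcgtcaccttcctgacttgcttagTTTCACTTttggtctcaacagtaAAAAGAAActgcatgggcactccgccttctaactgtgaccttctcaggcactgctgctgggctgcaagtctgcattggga
Tnfsf8, chr4:63861235-63861534, minus strand: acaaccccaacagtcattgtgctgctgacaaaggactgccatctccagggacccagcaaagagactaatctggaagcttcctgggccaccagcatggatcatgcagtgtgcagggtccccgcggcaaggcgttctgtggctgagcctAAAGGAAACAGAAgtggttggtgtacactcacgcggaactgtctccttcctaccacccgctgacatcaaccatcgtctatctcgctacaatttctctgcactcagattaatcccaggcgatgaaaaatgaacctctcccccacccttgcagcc
Tnfsf13b, chr8:10006383-10006682, plus strand: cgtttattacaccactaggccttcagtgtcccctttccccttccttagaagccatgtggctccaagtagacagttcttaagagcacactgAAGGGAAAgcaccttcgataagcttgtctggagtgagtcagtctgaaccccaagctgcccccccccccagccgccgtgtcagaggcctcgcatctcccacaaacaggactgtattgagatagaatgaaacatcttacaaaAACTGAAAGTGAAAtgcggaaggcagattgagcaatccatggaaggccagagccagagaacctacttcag
Tnfrsf1b, chr4:145246821-145247120, minus strand: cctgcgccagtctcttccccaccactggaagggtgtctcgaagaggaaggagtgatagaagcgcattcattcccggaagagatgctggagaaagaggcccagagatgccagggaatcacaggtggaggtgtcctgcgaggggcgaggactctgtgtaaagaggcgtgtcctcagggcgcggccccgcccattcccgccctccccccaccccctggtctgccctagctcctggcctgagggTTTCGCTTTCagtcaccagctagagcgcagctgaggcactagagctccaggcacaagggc

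The Tnfsf10 window held AANNGAAA at -53 to -46 and at -30 to -23 from the start, and GAAANNGAA nowhere. In Tnfsf8 AANNGAAA at -103 to -96 overlapped GAAANNGAA at -99 to -91. GAAANNGAA was also found at -16 to -8 in Tnfsf13b and at -9 to -1 in Tnfrsf1b, in both cases overlapping AANNGAAA. Tnfsf13b has a second window in the table, from 10006217 to 10006516 on the same strand, which held AANNGAAA at 7 to 14 and GAAANNGAA nowhere. Among all 32851 promoter windows of the table, AANNGAAA was in 23.9% and GAAANNGAA in 8.56%. The windows of Tnf and Tnfrsf1a held neither, and that of Fas held AANNGAAA at 2 places. TTCNNNGAA, the element bound by STAT factors, was in 8.30% of all windows and in those of Tnfrsf1b, Tnfrsf1a and Fas. The NF-kB consensus was in 8.46% of all windows and in none of those of the members that had a window. A match describes letters and not binding, and the absence of one says only that these letters are not in the window.

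Setting poly(I:C) against saline asks how these transcripts respond to a viral mimic given outside the brain. Tnfsf10 was the only member called in edgeR, 4.11-fold higher with poly(I:C). Tnfsf8, the ligand of CD30, and Cd40, the receptor of the T cell protein CD40L, had differences of 3.86-fold and 2.76-fold that missed the threshold over all genes. Tnf itself was 1.65-fold apart, with groups that overlapped, and was not called. The TNF receptor genes Tnfrsf1a and Tnfrsf1b, the most abundant members, had values of 0.797-fold and 0.867-fold.

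Over 14727 genes in edgeR (quasi-likelihood F test, Benjamini-Hochberg adjustment), 1 of 10 members was higher and 0 were lower, against 0.883% of all tested genes higher and 0.0747% lower. At an unadjusted p under 0.05 there were 4 members, Tnfsf10, Tnfsf8, Cd40 and Tnfrsf1a, where 21.3% of all tested genes reached it. Only Tnfrsf1a of these 4 was lower with poly(I:C). DESeq2 called 3 members higher, Tnfsf10, Tnfsf8 and Cd40, and 0 lower, against 3.76% and 3.02% of genes. Limma-voom with quality weights called the same 3 higher and Tnfrsf1a lower, against 8.61% and 10.9% of genes. The median log2 fold change was 0.33 over the 10 members and 0.0098 over all tested genes. In 3 members all poly(I:C) libraries lay above all saline libraries, and in 1 all lay below, where 14.0% and 14.3% of tested genes did so.

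**Figure D1:**
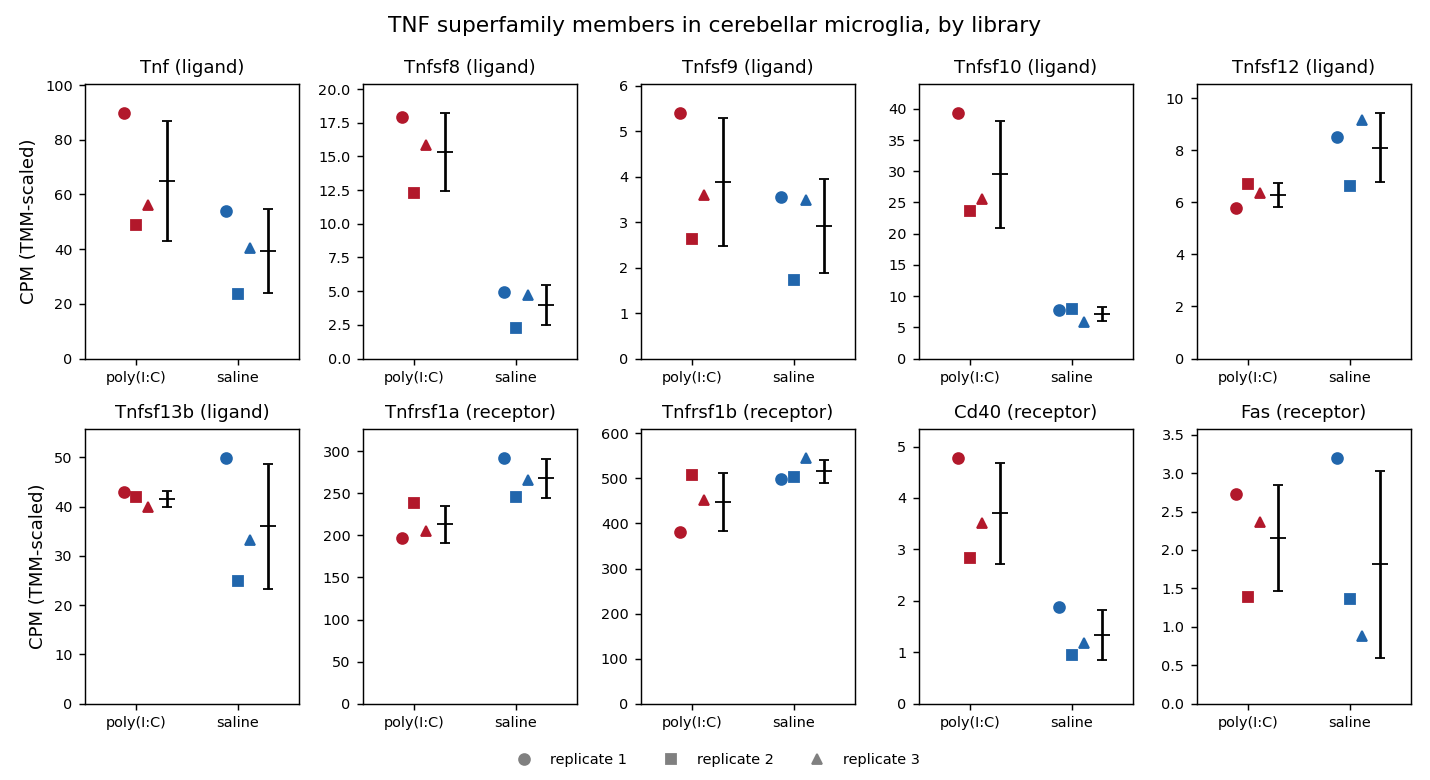
Points are the TMM-scaled CPM of each member in each library, with poly(I:C) left and saline right in every panel, and bars are the mean ± SD of 3 libraries. Tnfsf10, Tnfsf8 and Cd40 lie higher in all 3 poly(I:C) libraries than in any saline library, and Tnfrsf1a lies lower.

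Among the ligands, Tnfsf10 codes for TRAIL, which binds death receptors on other cells. Its CPM was 39.3, 23.6 and 25.6 in poly(I:C) replicates 1, 2 and 3, against 7.69, 7.91 and 5.93 in saline replicates 1, 2 and 3. The lowest poly(I:C) library stood well above the highest saline library, and saline libraries were close to each other. Tnfsf10 averaged 29.5 ± 8.54 CPM in poly(I:C) and 7.18 ± 1.09 CPM in saline (SD, n = 3 each), a log2 fold change of 2.04 (SE 0.24, edgeR adjusted p = 0.0123). The 95% interval of the fold change ran from 2.79 to 6.06. The call was lost without poly(I:C) replicate 3 (log2 2.13, edgeR adjusted p = 0.0558), without saline replicate 2 (2.11, adjusted p = 0.0531) and without saline replicate 3 (1.92, adjusted p = 0.0781). Over the whole table these fits called 51, 66 and 53 genes higher, in that order, against 130 with all libraries. Saline replicate 1 was highest in neutrophil markers and poly(I:C) replicate 1 in choroid plexus markers. Without both, the log2 fold change of Tnfsf10 was 1.85 (edgeR adjusted p = 0.00210), in a fit that called 355 genes higher.

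The genes whose profile over the 6 libraries was most like that of Tnfsf10, by root-mean-square distance in centred log2 CPM among 10671 genes of at least 5 CPM, were Herc6, Tor3a and Ifih1. The distances were 0.12, 0.17 and 0.19 on the log2 scale. Herc6, an interferon-inducible HECT-domain ligase gene, stood at 127 CPM in poly(I:C) and 28.8 CPM in saline. Tor3a stood at 199.7 CPM in poly(I:C) and 60.0 CPM in saline. Ifih1, which codes for the double-stranded RNA sensor MDA5, stood at 90.0 CPM in poly(I:C) and 22.9 CPM in saline. All 3 were called higher in the same test. The profile used to choose them includes the difference between groups, so this follows from the choice and adds no evidence.

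Tnfsf8 codes for the CD30 ligand, which activates T cells that carry CD30. It had 18.0, 12.3 and 15.8 CPM in the poly(I:C) libraries, against 4.96, 2.28 and 4.69 CPM in the saline libraries. The groups did not overlap, and saline replicate 2 was the lowest of all. The log2 fold change was 1.95 (SE 0.33, edgeR adjusted p = 0.0575), with a 95% interval of 2.25-fold to 6.61-fold. Over 15 alternative settings it lay between 1.67 and 2.13, and 9 of the 15 brought it past the threshold.

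**Figure D2:**
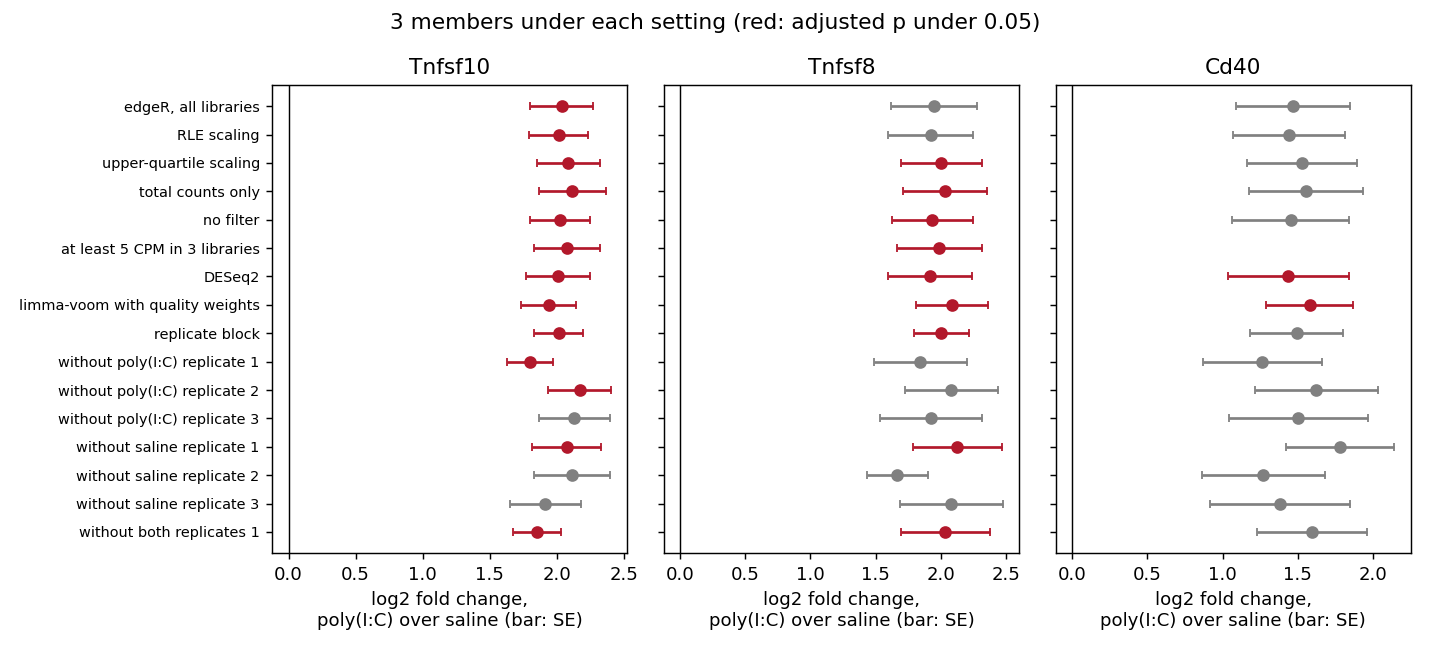
Points are log2 fold changes of poly(I:C) over saline with their SE for Tnfsf10, Tnfsf8 and Cd40 under each scaling, filter, tool and set of libraries, coloured red at an adjusted p under 0.05. All points lie right of 0, and the adjusted p, more than the size, moves between settings.

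Tnf codes for TNF-alpha, the founding ligand, which signals through Tnfrsf1a and Tnfrsf1b. Its CPM was 89.8, 48.8 and 56.0 in poly(I:C), against 54.0, 23.5 and 40.5 in saline. Poly(I:C) replicate 2 lay below saline replicate 1, so the groups overlapped, and the libraries of a group spanned 1.84-fold in poly(I:C) and 2.29-fold in saline. The log2 difference of 0.72 (SE 0.34, edgeR adjusted p = 0.266) had a 95% interval from 0.940-fold to 2.89-fold. It ranged from 0.44 without poly(I:C) replicate 1 to 1.00 without saline replicate 1, and did not pass in any alternative. The nearest were 0.72 in limma-voom (adjusted p = 0.0659) and 0.75 in edgeR with the replicate block (adjusted p = 0.0676).

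Tnfsf9 codes for the 4-1BB ligand, a costimulator of T cells. It had 5.40, 2.63 and 3.59 CPM in poly(I:C), against 3.56, 1.73 and 3.48 CPM in saline. The groups overlapped, with a log2 difference of 0.41 (SE 0.40, edgeR adjusted p = 0.561). It was 0.11 without poly(I:C) replicate 1.

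Tnfsf13b codes for BAFF, a survival factor of B cells. It had 42.9, 41.9 and 39.8 CPM in poly(I:C), against 49.8, 24.9 and 33.2 CPM in saline. The poly(I:C) libraries were close together and fell inside the saline range, whose top was saline replicate 1, the library with the highest neutrophil sum. The log2 difference was 0.21 (SE 0.24, edgeR adjusted p = 0.612). It was 0.51 (SE 0.15, adjusted p = 0.185) without saline replicate 1 and −0.00095 without saline replicate 2, so single saline libraries decide it. The part of neutrophil transcripts in this was not tested.

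Tnfsf12 codes for TWEAK, which acts through the receptor gene Tnfrsf12a. It had 5.77, 6.71 and 6.35 CPM in poly(I:C), against 8.52, 6.61 and 9.17 CPM in saline. Saline replicate 2 lay within the poly(I:C) range. The log2 difference of −0.37 (SE 0.20, edgeR adjusted p = 0.311) was negative in all 15 alternatives. In GENCODE M21 its locus overlaps the Tnfsf12-Tnfsf13 fusion gene Tnfsfm13 on the same strand and Tnfsf13os on the other, so its counts may be incomplete or shared.

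**Figure D3:**
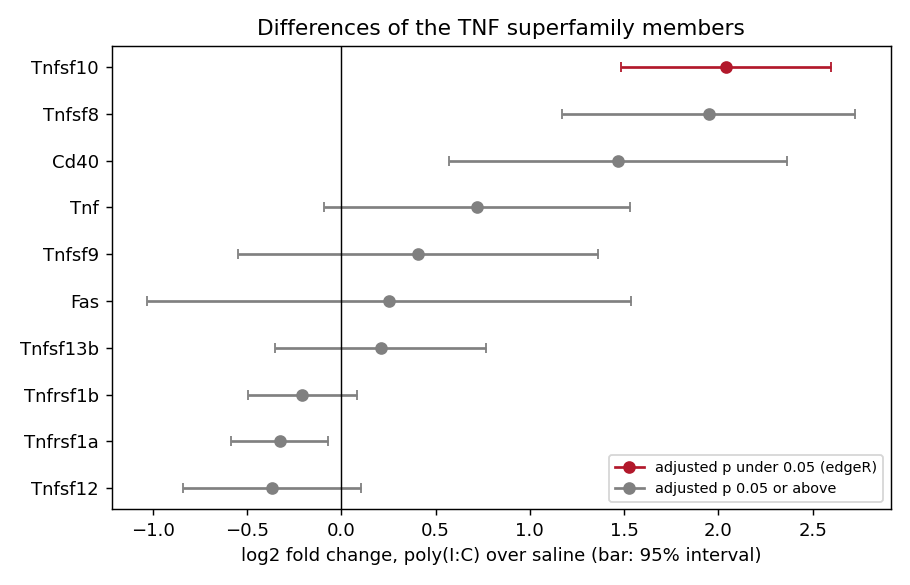
Points are log2 fold changes of poly(I:C) over saline from edgeR with 95% intervals, 1 row per member, ordered by size. The interval of Tnfsf10 runs from 1.48 to 2.60, those of Tnfsf8, Cd40 and Tnfrsf1a also exclude 0 before adjustment, and the remaining intervals include 0.

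Among the receptors, Tnfrsf1a codes for TNFR1, the death domain receptor of TNF. It had 197, 238 and 205 CPM in poly(I:C), against 292, 245 and 266 CPM in saline. All poly(I:C) libraries were lower, though poly(I:C) replicate 2 lay close below saline replicate 2. Tnfrsf1a averaged 213 ± 21.9 CPM in poly(I:C) and 268 ± 23.3 CPM in saline (SD, n = 3 each), a log2 difference of −0.33 (SE 0.11, edgeR adjusted p = 0.185). Without both replicate 1 libraries it was −0.18 (adjusted p = 0.381).

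Tnfrsf1b codes for TNFR2, the receptor of TNF without a death domain. It had 381, 508 and 453 CPM in poly(I:C), against 499.5, 504 and 545 CPM in saline. Poly(I:C) replicate 2 lay inside the saline range. The log2 difference was −0.21 (SE 0.12, edgeR adjusted p = 0.343). It was −0.079 (adjusted p = 0.724) without poly(I:C) replicate 1, which had the lowest Tnfrsf1b, the lowest microglial marker sum (21255 CPM) and the highest choroid plexus sum (19461 CPM). The part of these sums in the Tnfrsf1a and Tnfrsf1b values was not tested. Within each library, Tnfrsf1a counts were 0.518, 0.469 and 0.452 of Tnfrsf1b counts in poly(I:C), against 0.584, 0.487 and 0.488 in saline, which overlap.

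Cd40 codes for a receptor through which T cells activate macrophages and B cells. It had 4.77, 2.84 and 3.51 CPM in poly(I:C), against 1.89, 0.953 and 1.18 CPM in saline, from between 33 and 168 counts per library. Every poly(I:C) library was above every saline library. The log2 difference was 1.47 (SE 0.38, edgeR adjusted p = 0.142), with a 95% interval of 1.49-fold to 5.14-fold before adjustment. Cd40 is also a B cell gene. The B cell list of 6 genes in the table summed to between 13.5 and 15.6 CPM in poly(I:C) and between 14.2 and 26.0 CPM in saline. Within each group the library with the highest B cell sum, replicate 1 in both, also had the highest Cd40. In poly(I:C), however, Cd79b, the largest part of that sum, was lowest in replicate 1 (8.81, against 12.7 and 11.1 CPM). The other genes of the list were highest there, with Ebf1 the largest of them (4.77, against 1.06 and 1.49 CPM). The part of B cells in the Cd40 values was not tested.

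Fas codes for the death receptor of FasL. It had 2.73, 1.39 and 2.36 CPM in poly(I:C), against 3.19, 1.36 and 0.884 CPM in saline. The saline libraries spanned 3.61-fold and covered the poly(I:C) range. The log2 difference of 0.25 (SE 0.54, edgeR adjusted p = 0.798) had a 95% interval from 0.490-fold to 2.90-fold. It was 0.93 without saline replicate 1 and −0.078 without saline replicate 3.

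Libraries of a group were ranked for each member, as a description without a test. Of the poly(I:C) libraries, replicate 1 was the highest for 7 members and the lowest for the other 3, Tnfsf12, Tnfrsf1a and Tnfrsf1b. Poly(I:C) replicate 2 was the lowest for 6 members and the highest for those same 3. Among saline libraries, replicate 1 was the highest for 7 members and replicate 2 the lowest for 7. Poly(I:C) replicate 1 and saline replicate 1 are also the libraries that stand apart in the choroid plexus and neutrophil lists. The part of other cells in this order was not tested.

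Levels can be set against each other only per length, here as CPM per kilobase of the union of exons in GENCODE M21 (GRCm38), which may not match the transcripts present. Per kilobase, Tnfrsf1b stood first at 117 ± 16.7 in poly(I:C) and 135 ± 6.56 in saline (SD, n = 3 each). Tnfrsf1a followed at 82.3 ± 8.46 in poly(I:C) and 103 ± 9.00 in saline, and Tnf at 39.6 ± 13.4 in poly(I:C) and 24.0 ± 9.31 in saline. These 3 were apart from each other and from all remaining members in both groups.

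In the poly(I:C) libraries Tnfsf13b came next at 6.05 ± 0.229, overlapping Tnfsf10 at 5.61 ± 1.62, and Tnfsf12 at 4.14 ± 0.314 overlapped Tnfsf8 at 4.03 ± 0.755. Tnfsf9 at 3.00 ± 1.09 overlapped Tnfsf8 and lay above Cd40 at 1.09 ± 0.289, which overlapped Fas at 1.05 ± 0.335. In the saline libraries the order below Tnf was Tnfsf12 (5.35 ± 0.877), Tnfsf13b (5.24 ± 1.85), Tnfsf9 (2.27 ± 0.800), Tnfsf10 (1.36 ± 0.207), Tnfsf8 (1.04 ± 0.387), Fas (0.878 ± 0.592) and Cd40 (0.393 ± 0.143). Of the neighbours in that order, only Tnfsf13b and Tnfsf9 had ranges that did not overlap. Tnfsf10 lay just above the range of Tnfsf12 in poly(I:C) libraries (lowest Tnfsf10 4.49, highest Tnfsf12 4.43). It lay below that range in saline libraries (lowest Tnfsf12 4.36). Tnfsf12 counts may be incomplete or shared, as said above, so its place in both orders is uncertain.

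**Figure D4:**
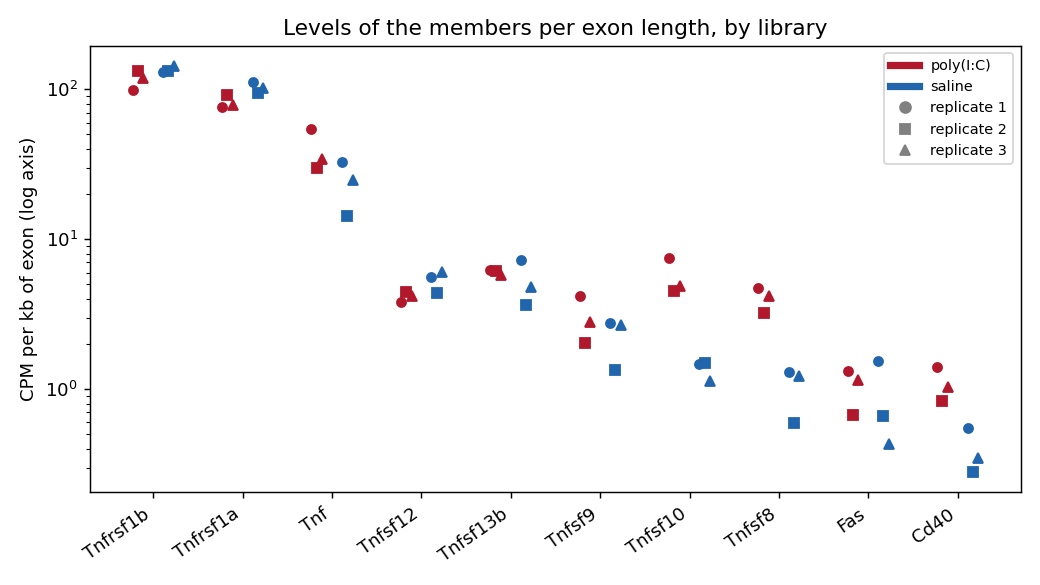
Points are CPM per kilobase of exon on a log axis, by library, with poly(I:C) left of saline for each member and members ordered by their saline mean. Tnfrsf1b, Tnfrsf1a and Tnf occupy the top in both groups, and Tnfsf10, Tnfsf8 and Cd40 show a gap between the groups.

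The binding partners of the members, taken from the pathway lists by what they bind after values were known, differed widely in their counts. Cd40lg, the ligand of Cd40, had 0 counts in every library, which allows up to 0.0912 CPM in a library. Fasl, the ligand of Fas, had 5, 1 and 10 counts in poly(I:C), against 8, 12 and 1 in saline. Lta, a further ligand of both TNF receptors, had 0, 3 and 1 counts in poly(I:C), against 5, 0 and 0 in saline. Among receptors of the ligands, Tnfrsf9 (for Tnfsf9) had at most 6 counts, and Tnfrsf8 (for Tnfsf8) had 20, 8 and 11 counts in poly(I:C), against 19, 2 and 2 in saline. Tnfrsf10b, the mouse receptor of TRAIL, had 98, 29 and 18 counts in poly(I:C), against 37, 29 and 2 in saline. The mouse decoy receptors of TRAIL had more reads. Tnfrsf22 had 198, 344 and 373 counts in poly(I:C), against 296, 270 and 327 in saline (log2 0.0043, edgeR adjusted p = 0.994). Tnfrsf23 had 534, 600 and 747 counts in poly(I:C), against 680, 635 and 768 in saline (log2 −0.18, edgeR adjusted p = 0.518). Tnfrsf11b, which codes for the soluble receptor osteoprotegerin that also binds TRAIL, had 0, 0 and 3 counts in poly(I:C), against 11, 11 and 7 in saline, and was below the filter.

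BAFF has 3 receptors. Tnfrsf13b, which codes for the BAFF receptor TACI, stood at 116 ± 19.4 CPM in poly(I:C) and 108 ± 4.91 CPM in saline (SD, n = 3 each, log2 0.098, edgeR adjusted p = 0.668). Tnfrsf13c, the BAFF receptor of B cells, had 6, 0 and 2 counts in poly(I:C), against 31, 17 and 8 in saline, and was below the filter. Tnfrsf17, which also binds BAFF, had a log2 difference of −1.35 and is given with the other receptors. Tnfrsf12a, the receptor of TWEAK, stood at 4.60 ± 0.396 CPM in poly(I:C) and 5.22 ± 0.623 CPM in saline (log2 −0.18, edgeR adjusted p = 0.614).

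Of the 12 other ligands listed, 10 had a row, 4 were tested and 0 were called by edgeR. At an unadjusted p under 0.05 there was 1, where 21.3% of all tested genes reached it. DESeq2 called 1 lower, against 3.02% of genes. The 6 untested ones had at most 13 counts in any library. Ltb, which codes for lymphotoxin beta, had 169, 320 and 207 counts in poly(I:C), against 869, 446 and 364 in saline, a log2 difference of −1.31 (SE 0.41, edgeR adjusted p = 0.174). Tnfsf18, the ligand of GITR, and Tnfsf14, which codes for LIGHT, had differences of 0.87 and −1.08 (edgeR adjusted p = 0.308 and 0.350). The median of the 4 was −0.71.

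Of the 24 other receptors, 18 were tested and 0 were called by edgeR, around a median of −0.088. There were 3 at an unadjusted p under 0.05, against 21.3% of all tested genes. DESeq2 called 1 lower, against 3.02% of genes. Tnfrsf17, which codes for the plasma cell receptor BCMA, stood at 2.27 ± 0.598 CPM in poly(I:C) and 5.80 ± 1.52 CPM in saline (SD, n = 3 each, log2 −1.35, edgeR adjusted p = 0.131). Ltbr, the lymphotoxin beta receptor, had a log2 difference of −0.30 and Tnfrsf14, the receptor of LIGHT, of 0.39 (edgeR adjusted p = 0.186 and 0.191).

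Of the 33 adaptors and proximal signalling genes, edgeR called 1 higher and 0 lower, against 0.883% and 0.0747% of all tested genes. An unadjusted p under 0.05 was reached by 8, against 21.3% of all tested genes, and the median was −0.047. DESeq2 also called 1 higher and 0 lower, against 3.76% and 3.02% of genes. The gene called by edgeR was Daxx, whose product was first described as a partner of the Fas death domain and also acts as a histone chaperone. Daxx stood at 63.7 ± 7.21 CPM in poly(I:C) and 35.7 ± 1.79 CPM in saline (SD, n = 3 each, log2 0.84, SE 0.11, edgeR adjusted p = 0.0194). It was not called without poly(I:C) replicate 3, saline replicate 2 or saline replicate 3, when the list had 0 calls. Those fits called 51, 66 and 53 genes higher over the whole table, in that order, against 130 with all libraries.

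Of the 16 genes for TNF messenger control, processing and shedding, 0 were called by edgeR (median −0.15). An unadjusted p under 0.05 was found for 7, against 21.3% of all tested genes. DESeq2 called 1 higher and 3 lower, against 3.76% and 3.02% of genes. Sppl2a, an intramembrane protease that cuts TNF, had a log2 difference of 0.58 (SE 0.10, edgeR adjusted p = 0.0676). Furin, a protease that matures several superfamily ligands, had −0.57 (SE 0.10, edgeR adjusted p = 0.0724), and Rhbdf1, a regulator of the TNF-shedding protease, had −0.52 (SE 0.14, edgeR adjusted p = 0.155). The sheddase gene Adam17 itself was chosen after its value was seen. It was at 279.8 ± 10.4 CPM in poly(I:C) and 248 ± 24.2 CPM in saline (SD, n = 3 each). Its groups overlapped, with a log2 difference of 0.17 (edgeR adjusted p = 0.312).

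Of the 20 NF-kB targets of TNF, 0 were called by edgeR (median 0.14). An unadjusted p under 0.05 was found for 9, against 21.3% of all tested genes. DESeq2 called 2 higher and 1 lower, against 3.76% and 3.02% of genes. Tnip1 and Nfkbie, which code for inhibitors of the pathway, had log2 differences of −0.35 and −0.31, and Rel, an NF-kB subunit, of 0.36 (edgeR adjusted p = 0.148, 0.155 and 0.169).

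**Figure D5:**
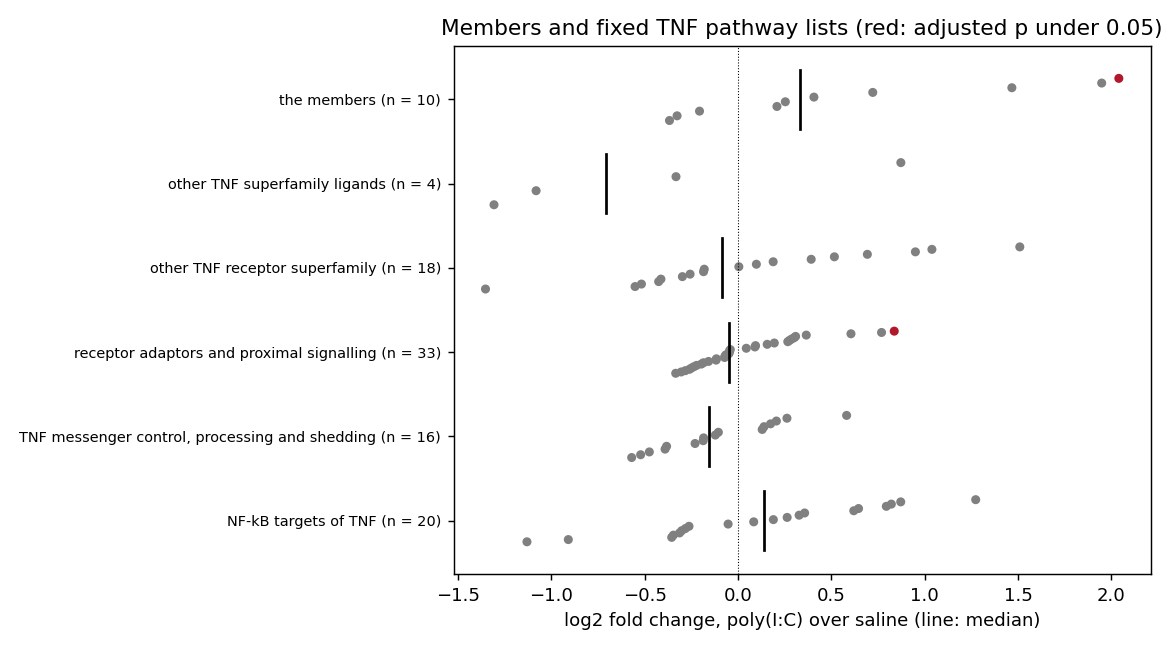
Points are log2 fold changes of poly(I:C) over saline for the tested genes of each list, with the black line at the list's median and red for an adjusted p under 0.05 in edgeR. Tnfsf10 among the members and Daxx among the adaptors are the called genes, and the medians of the 4 lists with 16 or more tested genes lie between −0.15 and 0.14.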

How the data were processed

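The authors deposited raw read counts per gene symbol, in a table with a column for each library. Reads were handled with fastp, HISAT2 and HTSeq on build GRCm39, per the submitters' processing notes; their versions, strand mode and annotation were not given in the sources used here. SMARTer amplification and Nextera XT were used, per the labels' protocols, so counts are of PCR-amplified reads without strand. The limits given for counts of 0 cover counting error only, while the 95% intervals of fold changes come from the edgeR fit and include the spread between libraries. Overlapping genes lie at the Tnfsf9, Tnfsf12, Tnfsf13b and Fas loci in GENCODE M21 and cannot be told apart by strand.

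Counts were filtered with filterByExpr (14727 of 23491 symbols kept), scaled by TMM and tested with edgeR 4.0.16 in R 4.3.3 (glmQLFit, glmQLFTest) on all 6 libraries without covariates, with calls at an adjusted p under 0.05 (Benjamini-Hochberg). The SE is the absolute log2 fold change over the square root of F. DESeq2 1.42.0, limma 3.58.1 voom, 3 scalings, 2 filters, a replicate block and left-out libraries were the alternatives. Replicates differed by more than counting noise (chi-square per gene between 22.2 and 124). Members, lists and tests were chosen with earlier results of these data known. The forms of the promoter motifs were settled after matches had been seen. Named list genes are the called ones or else the 3 of smallest p among those that averaged 1 CPM or more; the text says where another was picked once its value was known. On simulated data for this comparison (14530 genes), 38% of 2-fold changes, 78% of 4-fold changes and 86% of 8-fold changes were recovered, and 2% of those of 1.5-fold.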

Additional observations from a re-analysis of the deposited data

How the results depend on the processing

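Over the whole table, edgeR called 130 genes higher and 11 lower; DESeq2 gave 557 and 448, limma-voom with quality weights 1268 and 1608, and the fit without both replicate 1 libraries 355 and 214. The lower count was also 18 without a filter and 89 with the replicate block. Leaving out 1 library gave between 51 and 167 higher and between 0 and 20 lower genes. Correlations of the deviations of same-numbered libraries were 0.15, −0.091 and 0.25, and 1 of 3 poly(I:C) libraries correlated best with its own number. With 3 libraries per group, these values cannot decide whether same-numbered libraries were paired.

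Members higher numbered 1 in edgeR. They numbered 2 under upper-quartile scaling, total counts, no filter, the 5 CPM filter, the replicate block and without both replicate 1 libraries. In that order, these settings called 167, 155, 147, 146, 171 and 355 genes higher over the whole table. Members higher numbered 3 in DESeq2 and limma-voom, and between 0 and 2 with 1 library left out. Members lower numbered 1 in limma-voom. Tnfsf10 lay between 1.80 and 2.17 with 1 library left out (adjusted p between 0.0127 and 0.0781). Tnfsf8 passed at 2.01 under upper-quartile scaling, 2.03 under total counts, 1.93 without a filter, 1.99 under the 5 CPM filter, 1.92 in DESeq2, 2.09 in limma-voom, 2.01 with the replicate block and 2.04 without both replicate 1 libraries; with 1 library left out it lay between 1.67 and 2.13 and passed once, without saline replicate 1. Cd40 passed at 1.44 in DESeq2 and 1.58 in limma-voom, and Tnfrsf1a at −0.33 in limma-voom. With 1 library left out, Tnfsf13b lay between −0.00095 and 0.51 (0.52 without both replicate 1 libraries) and Fas between −0.078 and 0.93. The other members kept their sign in every alternative that tested them. The 5 CPM filter left out Tnfsf9, Cd40 and Fas.

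In the pathway lists, limma-voom called 1 other ligand and 2 other receptors lower, and 7 adaptors higher and 3 lower. It also called 2 processing genes higher and 4 lower, and 4 NF-kB targets higher and 5 lower. Over all genes limma-voom called 8.61% higher and 10.9% lower. DESeq2 called 1 other ligand and 1 other receptor lower, and 1 adaptor higher. It also called 1 processing gene higher and 3 lower, and 2 targets higher and 1 lower. Its shares of all genes were 3.76% higher and 3.02% lower. Upper-quartile scaling called 1 processing gene higher, and the replicate block 1 processing gene and 1 target higher. These settings called 167 and 171 of all 14727 genes higher. Without both replicate 1 libraries there were 1 other receptor lower, 2 adaptors higher, 1 processing gene higher and 1 target higher. Over the whole table that fit called 355 of 14763 genes higher and 214 lower. With 1 library left out, adaptors, processing genes and targets higher and processing genes lower each lay between 0 and 1. The whole table then gave between 51 and 167 genes higher and between 0 and 20 lower. The cause of these shifts was not tested. Most differences under 2-fold would be missed at this spread, and Tnfsf9, Fas and Cd40 rest on few counts.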
